A study of Homo sapiens with 16 samples.

Results

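The genes described here are 9 intermediate filament genes, KRT7, KRT8, KRT18, KRT19, KRT80, KRT81, VIM, NES and LMNA, followed through all 10 RNA-seq libraries of a set of HT1080 clones that carry an inducible XIST transgene. They make up 9 of the 21031 genes that have the same symbol in both deposited expression tables. The list was drawn up by name, and the values it was chosen by were the KRT81 levels, which were lower with doxycycline (DOX) than without it in all 3 XIST clones. The DOX values are therefore described below without a test, and tests are kept for differences between clones. Of the 9 genes, 6 (KRT8, KRT18, KRT80, KRT81, VIM and LMNA) reached a mean of 1 FPKM (fragments mapped to a gene, scaled by transcript length and library size), and KRT7, KRT19 and NES did not.

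HT1080 is a human fibrosarcoma cell line, and all clones used here express a Tet repressor, so that DOX releases transcription of the transgene placed at an FRT recombination site. The 8p XIST clone had 1 No DOX and 2 DOX libraries, and the HiSeq table also held single DOX libraries of the 1p XIST clone, of the 12q XIST clone and of 1p cells that carry the empty vector in place of XIST. NextSeq libraries were 1 No DOX and 1 DOX library of the 1p XIST clone and of the 12q XIST clone. DOX was given for 5 days throughout, and no vector library without DOX was analysed here, so DOX and XIST cannot be told apart. Each site is represented by clonal lines, the 12q line came from a different HT1080 subclone, and the study's methods speak of 2 clones for the 8p DOX libraries. The NextSeq 1p libraries bear different replicate names (1A for No DOX and 2A for DOX), and so do the 12q libraries of the tables (2A in the HiSeq and 1A in the NextSeq table), and whether each name marks a clone is not given in the labels. Nothing in the labels says that libraries of a group came from separate cultures, so the p-values below measure only the spread between these libraries.

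XIST, the check of the induction, stood at 3.38 FPKM in 8p No DOX and at 99.0 and 89.7 FPKM in the 8p DOX libraries. In the HiSeq table it was at 23.8 FPKM in 1p DOX, 61.9 FPKM in 12q DOX and 0.0705 FPKM in the vector library. In the NextSeq table it went from 4.17 to 22.0 FPKM in the 1p clone and from 3.75 to 67.6 FPKM in the 12q clone. The libraries had between 10975 and 11240 genes at 1 FPKM or more in the HiSeq table and between 11116 and 11399 in the NextSeq table. FPKM carries no read depth, so no counting error can be given for any value.

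Intermediate filaments are the tough, rope-like polymers of the cytoskeleton and of the nuclear lamina. Keratins form obligate pairs of a type I chain (here KRT18 and KRT19) with a type II chain (here KRT7, KRT8, KRT80 and KRT81). KRT8 and KRT18 are the pair of simple epithelia, which many mesenchymal tumour lines also make, whereas KRT81 is a type II hair keratin that is known from the hair cortex. VIM (vimentin) is the filament protein of mesenchymal cells, NES (nestin) that of neural progenitors, and LMNA gives lamins A and C beneath the nuclear envelope.

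VIM was the most highly expressed of the 9 genes in every library. Its level was 2103 FPKM in 8p No DOX, 2207 and 2241 FPKM in 8p DOX, 1957 FPKM in 1p DOX, 1930 FPKM in the vector library and 1644 FPKM in 12q DOX of the HiSeq table. NextSeq values were 2978 and 2878 FPKM in 1p No DOX and DOX, and 1835 and 1940 FPKM in 12q No DOX and DOX. The 12q libraries were thus the lowest for VIM in both tables. VIM took 73.9% to 84.8% of the summed FPKM of the 9 genes in the HiSeq libraries and 76.7% to 85.6% in the NextSeq libraries.

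LMNA came second by mean level in both tables. It stood at 259 FPKM in 8p No DOX, 275 and 257 FPKM in 8p DOX, 251 FPKM in 1p DOX, 127 FPKM in the vector library and 185 FPKM in 12q DOX. The NextSeq values were 164 and 172 FPKM in the 1p clone and 178 and 136 FPKM in the 12q clone, No DOX first. The vector library was the lowest for LMNA in the HiSeq table, and 12q DOX in the NextSeq table.

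KRT18 and KRT8 followed, and the keratin pair was present in every library of this mesenchymal line. KRT18 was at 212 FPKM in 8p No DOX, 187 and 191 FPKM in 8p DOX, 119 FPKM in 1p DOX, 105 FPKM in the vector library and 137 FPKM in 12q DOX. For KRT8 the same libraries gave 155, 177 and 181 FPKM in the 8p clone, 127 FPKM in 1p DOX, 97.1 FPKM in the vector library and 79.3 FPKM in 12q DOX. The 8p libraries were the 3 highest for both chains. In the NextSeq table, KRT18 was at 149 and 131 FPKM in the 1p clone and 164 and 130 FPKM in the 12q clone, No DOX before DOX. KRT8 was there at 94.8 and 88.9 FPKM in the 1p clone and 92.0 and 57.6 FPKM in the 12q clone. The ratio of KRT8 to KRT18 ranged from 0.579 to 1.06 in the HiSeq libraries, where KRT18 was the higher in 5 of 6, and from 0.442 to 0.678 in the NextSeq libraries. The KRT8 and KRT18 gene models overlap by 996 bases on hg18, and RefSeq lists 52 KRT8 and 68 KRT18 pseudogenes by symbol, so reads may have been shared between these copies.

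KRT81 and KRT80 varied more than the other expressed members in the HiSeq table, though KRT81 did not in the NextSeq table. Its level was 98.3 FPKM in 8p No DOX, 63.4 and 66.2 FPKM in 8p DOX, 28.8 FPKM in 1p DOX, 13.5 FPKM in the vector library and 85.8 FPKM in 12q DOX, so the highest HiSeq library had 7.26 times the level of the lowest, against 12.7 times for KRT80 and 2.28 times for KRT8. The highest NextSeq library had 1.51 times the KRT81 level of the lowest, against 1.65 times for KRT8 and 1.62 times for VIM. The NextSeq levels were 101 and 78.5 FPKM in 1p No DOX and DOX and 110 and 73.3 FPKM in 12q No DOX and DOX. KRT80, a type II keratin of several epithelia, lay below KRT81 in every library, which was 3.62 to 13.9 times as high in the HiSeq and 6.60 to 11.9 times as high in the NextSeq table. KRT80 stood at 19.5 FPKM in 8p No DOX, 8.05 and 8.55 FPKM in 8p DOX, 7.95 FPKM in 1p DOX, 1.54 FPKM in the vector library and 6.16 FPKM in 12q DOX. Its NextSeq levels were 11.8 and 11.9 FPKM in the 1p clone and 9.55 and 6.17 FPKM in the 12q clone. The vector library was the lowest for both keratins, and 8p No DOX the highest of the HiSeq libraries.

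The remaining members were near 0. KRT7, a simple-epithelial type II keratin, ranged from 0.201 to 0.355 FPKM in the HiSeq libraries other than 12q DOX, where it was 1.55 FPKM. Its NextSeq values were 0.496 and 0.393 FPKM in the 1p clone against 1.97 and 0.945 FPKM in the 12q clone, so every 12q library exceeded every 1p library of its table. NES ranged from 0.0881 to 0.375 FPKM in the HiSeq table and was 0.0585, 0.0731 and 0.290 FPKM in the NextSeq libraries other than 12q DOX, where it was 0.916 FPKM. KRT19, the smallest type I keratin, did not exceed 0.0906 FPKM in any HiSeq library and was listed at 0 in 3 of 4 NextSeq libraries. The exception was again the NextSeq 12q DOX library, with 0.964 FPKM.

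**Figure D1:**
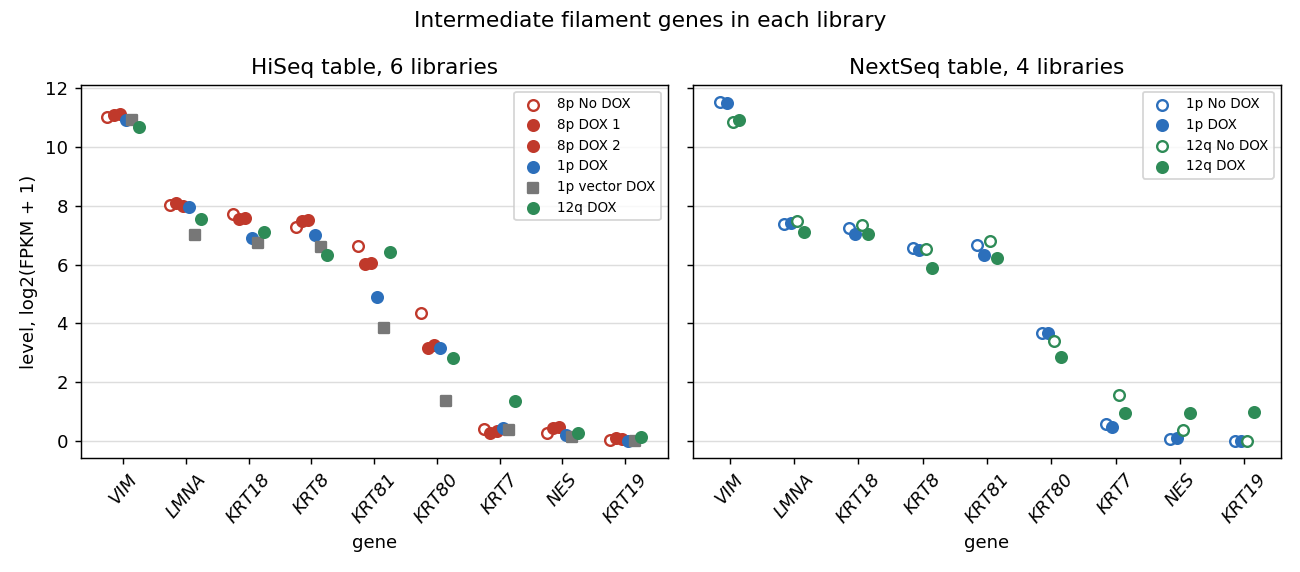
Level of each of the 9 genes, as log2(FPKM + 1), in the 6 HiSeq libraries (left) and the 4 NextSeq libraries (right); open circles are No DOX, filled circles DOX and grey squares the DOX-treated vector library, with 1 symbol a library. VIM lies highest in all 10 libraries, KRT81 and KRT80 spread the most of the expressed genes in the HiSeq table, and KRT7, NES and KRT19 lie near 0.

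By mean level the order was VIM, LMNA, KRT18, KRT8, KRT81, KRT80, KRT7, NES and KRT19 in the HiSeq table. The NextSeq order was the same but for KRT81 and KRT8, which changed places. On the log2(FPKM + 1) scale VIM exceeded LMNA by 3.19 ± 0.36 (SD, n = 6 libraries) and KRT81 exceeded KRT80 by 2.63 ± 0.63 (SD, n = 6) in the HiSeq table. LMNA was above KRT18 in all 6 libraries, by 0.50 ± 0.30. The difference of KRT18 over KRT8 was within its spread, at 0.24 ± 0.32, and so was that of KRT7 over NES, at 0.23 ± 0.45. Among NextSeq libraries KRT81 exceeded KRT8 in 3 of 4 libraries, by 0.13 ± 0.23, again within the spread.

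Summed over the members, type II chains exceeded type I chains in every library, by 1.07 to 1.37 times in FPKM in the HiSeq table and by 1.05 to 1.39 times in the NextSeq table. This order holds for the members only. With the further type I and type II keratins listed below added, it turned in the vector library and in NextSeq 12q DOX. In the latter the members summed to 131 FPKM of type I and 138 FPKM of type II. The further keratins there summed to 14.9 FPKM of type I and 2.22 FPKM of type II. What varied among the members was which type II chain made up their sum. KRT81 was 36.0% of the type II FPKM in 8p No DOX, 25.5% and 25.9% in 8p DOX, 17.6% in 1p DOX, 12.0% in the vector library and 49.6% in 12q DOX. In the NextSeq libraries its share lay between 43.7% and 53.1%. KRT8 and KRT81 were thus close to equal in 12q DOX of the HiSeq table, at 79.3 and 85.8 FPKM, while KRT8 was far above KRT81 in the vector library.

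**Figure D2:**
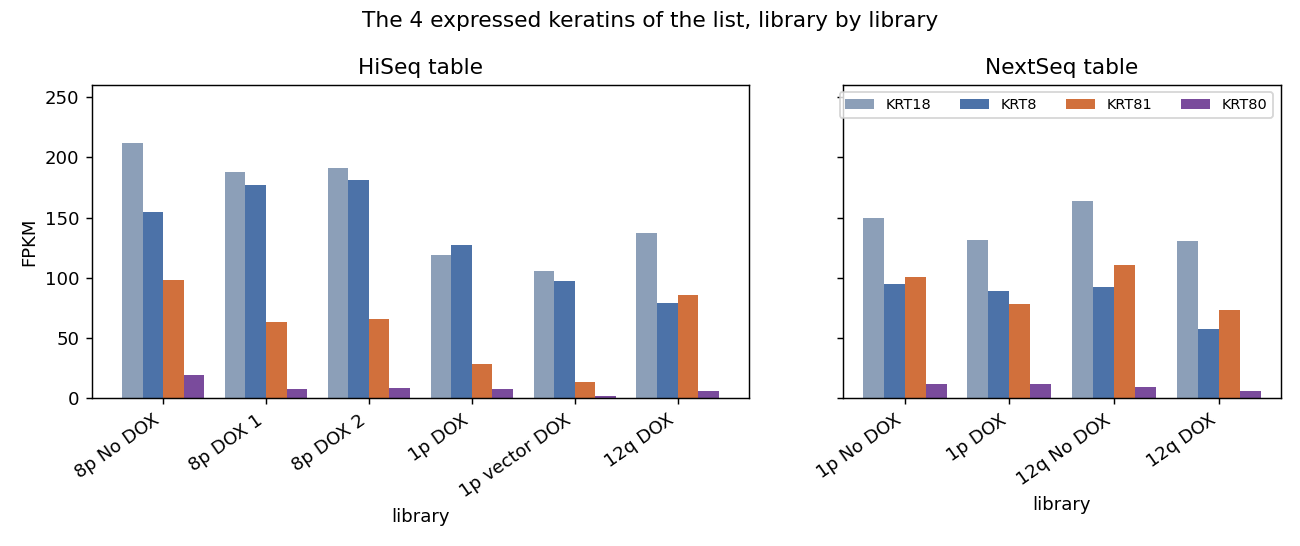
FPKM of KRT18, KRT8, KRT81 and KRT80 as 1 bar a library, for the HiSeq table (left) and the NextSeq table (right). KRT81 ranges from 13.5 FPKM in the vector library to 98.3 FPKM in 8p No DOX within the HiSeq table, and from 73.3 to 110 FPKM in the NextSeq table.

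The tissue label was checked against marker lists. Of 14 mesenchymal genes, VIM among them, 9 had a mean of 1 FPKM or more in each table. FAP, THY1, COL1A1, COL1A2 and COL3A1 did not reach it in either. The list summed to 1846 to 2689 FPKM in the HiSeq and 2120 to 3230 FPKM in the NextSeq libraries. Most of this was VIM, itself a member. VIM gave 1644 of the 1846 FPKM in HiSeq 12q DOX, 2241 of the 2689 FPKM in 8p DOX and 2978 of the 3230 FPKM in NextSeq 1p No DOX. Of 14 epithelial genes, 0 reached that mean in the HiSeq table and 2 in the NextSeq table. Their summed level was 0.542 to 1.53 FPKM in the HiSeq libraries, 2.64 and 2.46 FPKM in 1p No DOX and DOX of the NextSeq table, 6.00 FPKM in 12q No DOX and 10.5 FPKM in 12q DOX. CDH1 (E-cadherin) and EPCAM, chosen after their values were seen, were at 1.38 and 2.38 FPKM in NextSeq 12q DOX and did not exceed 0.0163 and 0.0497 FPKM in any of the other 9 libraries. This is the library in which KRT19 and NES stood out. The part of these transcripts in its values was not tested, and test results for the members are given with and without it where they moved by over 1.5 times. The DOX ratios of the 12q clone have no other DOX library to rest on.

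The first question was how the filament genes stood with DOX against No DOX within each clone, the contrast that singled out KRT81. The KRT81 level with DOX differed from No DOX by -34.0% in the 8p clone (-35.5% and -32.6% in the 2 DOX libraries), by -21.9% in the 1p clone and by -33.6% in the 12q clone. On the log2(FPKM + 1) scale the ratios of DOX to No DOX were -0.59 ± 0.04 (SD of 2 DOX libraries against 1 No DOX), -0.35 and -0.59. The share of all genes with a ratio as low was 6.22% in the 8p clone, 2.26% in the 1p clone and 1.95% in the 12q clone. These ratios chose KRT81, so the shares only describe it. With 1 No DOX library a clone, the spread of the No DOX level is unknown, and in bulk RNA fewer cells that express a gene and less RNA per cell cannot be told apart.

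Among the other expressed members, KRT18 was lower in all 3 clones, with differences of -10.7% in the 8p clone, -12.2% in the 1p clone and -20.5% in the 12q clone. KRT7, below 1 FPKM in most libraries, was also lower in all 3, from 0.313 to 0.201 and 0.256 FPKM in the 8p clone, from 0.496 to 0.393 FPKM in the 1p clone and from 1.97 to 0.945 FPKM in the 12q clone. Of the 6 expressed members 2 were thus lower in all 3 clones, of which KRT81 was chosen for it, so that 1 of the 5 others remains. Among all 9797 genes that could be followed 19.9% were lower in all 3 clones, and nothing is read from the members' count. With the libraries shifted to a common median the members were again KRT18 and KRT81, and the share of all genes was 13.3%. KRT81 was chosen by these ratios, so a count of genes as low as it is no separate result. Genes with a ratio at least as low as that of KRT81 in every clone numbered 4, or 0.0408%, KRT81 included. The others, named here after their values were seen, were ZNF703, a transcriptional regulator gene on chromosome 8p, and 2 small RNA genes, MIR1248 and SNORD88B. ZNF703 had log2 ratios of -1.38, -0.36 and -0.61 in the 8p, 1p and 12q clones, at means of 5.20 FPKM in the HiSeq and 5.60 FPKM in the NextSeq table.

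The expressed type II keratins KRT80 and KRT8 differed in direction between clones. KRT80 with DOX differed by -57.6% in the 8p clone and -35.4% in the 12q clone, but by 0.709% in the 1p clone. KRT8 differed by 15.7% in the 8p clone, -6.32% in the 1p clone and -37.4% in the 12q clone. The KRT8 ratio in the 12q clone, -0.67 on the log2 scale, was lower than that of KRT81, and 1.18% of genes had a ratio as low.

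VIM moved little in any clone. It differed by 5.75% in the 8p clone, -3.33% in the 1p clone and 5.70% in the 12q clone. LMNA differed by 2.94% in the 8p clone, where the 2 DOX libraries lay on either side of No DOX (-0.491% and 6.37%), by 4.51% in the 1p clone and by -23.8% in the 12q clone. The median log2 ratio over the 6 expressed members was -0.06 in the 8p clone, -0.07 in the 1p clone and -0.47 in the 12q clone. Over all genes the medians were -0.07, -0.00072 and -0.02. In the 12q clone 5 of 6 members were thus lower with DOX, all but VIM, where 55.2% of all genes were lower. The corresponding counts were 3 of 6 in the 8p clone beside 57.5% of genes, and 4 of 6 in the 1p clone beside 50.0%. NextSeq 12q DOX, the only DOX library of that contrast, is the library with CDH1 and EPCAM transcripts.

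**Figure D3:**
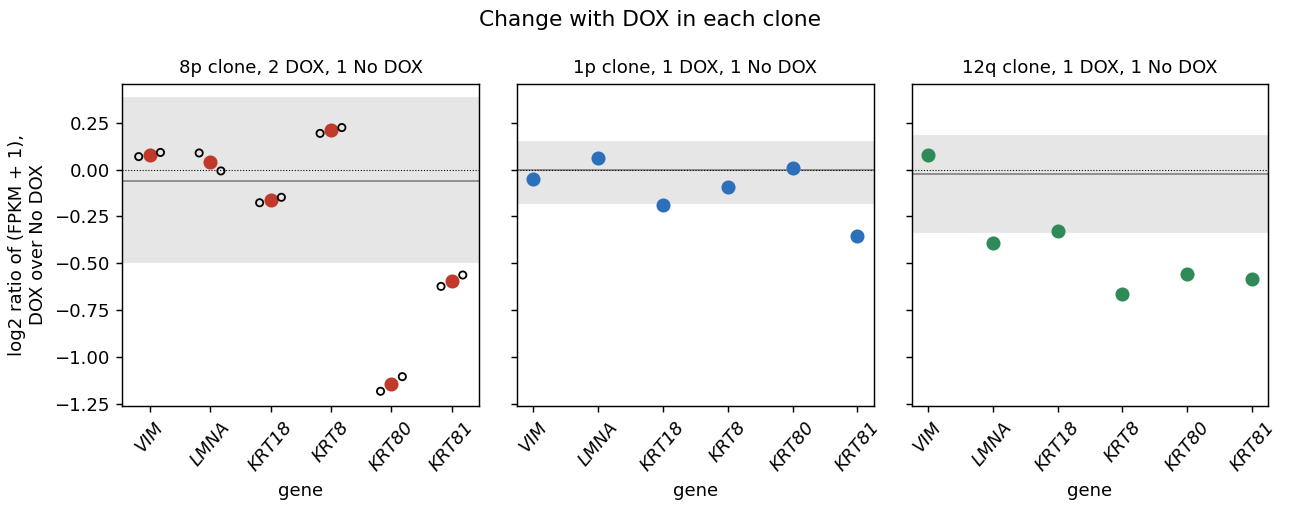
Log2 ratio of FPKM + 1, DOX over No DOX, of the 6 expressed members in the 8p, 1p and 12q clones (filled circles; the small open circles are the 2 DOX libraries of the 8p clone); the grey band spans the 10th to the 90th percentile of all genes and the grey line is their median. KRT81, which was chosen by these ratios, lies below the band in all 3 clones, at -0.59, -0.35 and -0.59. KRT80 does so in the 8p and 12q clones, KRT8 and LMNA in the 12q clone and KRT18 in the 1p clone.

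Between DOX-treated libraries of the HiSeq table, XIST expression itself differed, and here the vector library served as a DOX-treated sample without XIST. KRT81 was 2.13 times as high in 1p XIST DOX as in the vector library, 28.8 against 13.5 FPKM. KRT80 was 5.15 times as high, 7.95 against 1.54 FPKM, and LMNA 1.98 times as high. KRT8 and KRT18 differed by 1.31 and 1.13 times, and VIM by 1.01 times. Of all genes 2.86% had a log2 difference as high as that of KRT81 and 0.558% one as high as that of KRT80. These are 1 library against 1, with no replicate check, and the direction for KRT81 is opposite to that of its DOX ratio in the 1p clone. The vector cells come from a separate integration, so XIST and cell line cannot be told apart in this contrast.

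The first test compared both 8p DOX libraries with the 3 other HiSeq DOX libraries, 1p, vector and 12q, which keeps DOX treatment equal. With limma on log2(FPKM + 1) and a Benjamini-Hochberg adjusted p under 0.05, 160 of 11352 genes passed, or 1.41%, with 115 (1.01%) higher and 45 (0.396%) lower in the 8p libraries. Of the 5 members tested, all expressed members but KRT81, 0 passed by limma, while 2, KRT8 and KRT18, had an unadjusted p under 0.05. Of all 11352 genes 2881 had an unadjusted p under 0.05, and nothing is read from that count of members. KRT18 was 0.65 higher in 8p (SE 0.16; limma, adjusted p = 0.0951), and its 8p DOX values of 187 and 191 FPKM lay above the 105 to 137 FPKM of the others. KRT8 was 0.84 higher (SE 0.22; limma, adjusted p = 0.0992), at 177 and 181 FPKM against 79.3 to 127 FPKM. The median difference of all genes was 0.19, so the median gene shared part of each difference, and shifting the libraries to a common median left 0.46 for KRT18 and 0.65 for KRT8.

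The call for KRT18 depended on the libraries used. It passed without 12q DOX (log2 difference 0.75; limma, adjusted p = 0.0491) and with 8p No DOX added (0.71; limma, adjusted p = 0.0421). For VIM the difference was 0.27 (SE 0.12; limma, adjusted p = 0.213), which a common median brought to 0.08. For LMNA it was 0.56 (SE 0.29; limma, adjusted p = 0.280), and 0.30 without the vector library and 0.37 with a common median. For KRT80 it was 0.77 (SE 0.52; limma, adjusted p = 0.395). KRT80 in the vector library alone set much of that value, which was 0.22 without it. KRT81 was 0.97 higher in the 8p DOX libraries, given without a test, and its 12q value of 85.8 FPKM was above both 8p values. The difference was 0.37 without the vector library and 1.66 without 12q DOX.

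The second test, in the NextSeq table, set both 12q libraries against both 1p libraries, each side with 1 No DOX and 1 DOX library. The main fit held no term for DOX, so the spread within a side includes any difference with DOX. Here 3686 of 11397 genes passed (limma, adjusted p under 0.05), or 32.3%, with 1998 (17.5%) higher and 1688 (14.8%) lower in 12q. VIM was the 1 member of 5 tested to pass. It was lower in 12q, with a log2 difference of -0.63 (SE 0.06; limma, adjusted p = 0.00327), and its 12q values of 1835 and 1940 FPKM lay below the 1p values of 2978 and 2878 FPKM. Without the NextSeq 12q DOX library the VIM difference was -0.67 (limma, adjusted p = 0.00848). The call was lost without 1p No DOX (adjusted p = 0.0655) and without 1p DOX (adjusted p = 0.0619), where 1 library remained in the 1p arm and was assumed to vary like the 12q pair, and with no filter on low values (adjusted p = 0.228). In the HiSeq table VIM was also lower in 12q DOX than in 1p DOX, 1644 against 1957 FPKM.

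The KRT80 difference, 12q minus 1p, was -0.56 (SE 0.19; limma, adjusted p = 0.0773). Without 12q DOX it was -0.28 (adjusted p = 0.0547). It passed with the libraries shifted to a common median (-0.60, adjusted p = 0.0395) and without 12q No DOX (-0.84, adjusted p = 0.0128). KRT8 differed by -0.33 (SE 0.22; limma, adjusted p = 0.291), and this rested on 12q DOX, without which the difference was 0.0025. Without 12q No DOX, in turn, KRT8 passed at -0.66 (limma, adjusted p = 0.0160) and LMNA at -0.30 (limma, adjusted p = 0.0369). With all 4 libraries LMNA differed by -0.11 (SE 0.14; limma, adjusted p = 0.570) and KRT18 by 0.06 (SE 0.13; limma, adjusted p = 0.745). Without 12q DOX the differences were 0.088 for LMNA and 0.23 for KRT18. Adding DOX as a covariate gave limma adjusted p-values of 0.00655 for VIM, 0.0504 for KRT80, 0.146 for KRT8, 0.492 for KRT18 and 0.516 for LMNA.

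For KRT81 the 12q and 1p libraries of the NextSeq table differed by 0.02 in mean log2 level, given without a test because the same 4 values chose the gene. The difference was 0.31 without 12q DOX and -0.28 without 12q No DOX. In the HiSeq table, by contrast, 12q DOX had 2.98 times the KRT81 level of 1p DOX, 85.8 against 28.8 FPKM, with 1 library each. The tables were normalised separately, so these are given side by side and were not tested against each other. KRT7 was higher in 12q in both tables, at 1.55 against 0.355 FPKM in the HiSeq DOX libraries.

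**Figure D4:**
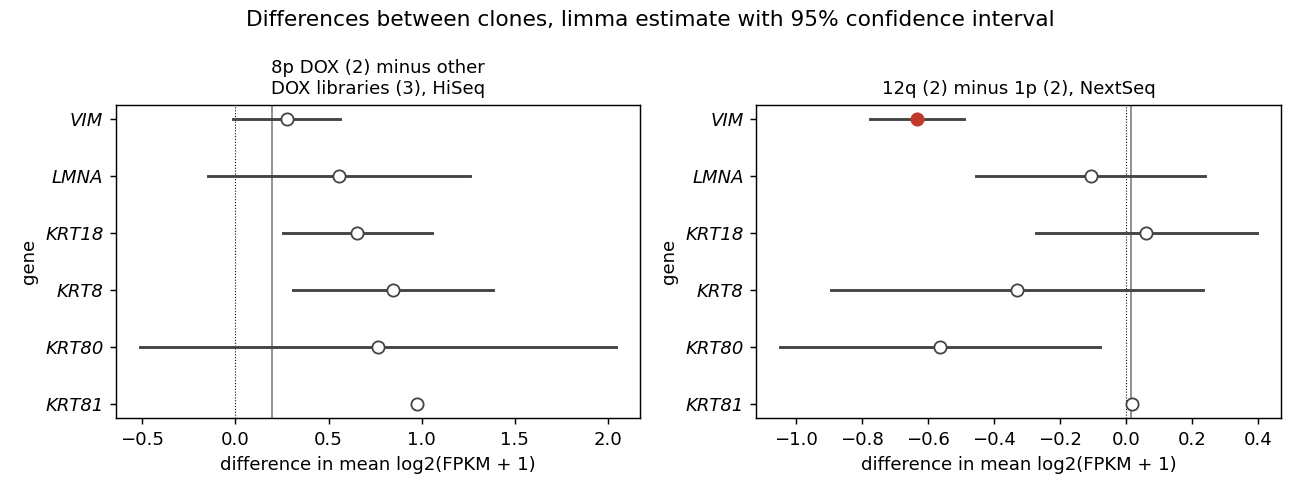
Difference in mean log2(FPKM + 1) of the 6 expressed members between 8p DOX and the other HiSeq DOX libraries (left) and between 12q and 1p in the NextSeq table (right), with limma's 95% confidence interval; the grey line is the median of all genes, a filled red point passed an adjusted p of 0.05, and KRT81, not tested, is drawn without an interval. VIM, at -0.63 in the 12q libraries, is the only filled point.

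Other genes of the filament system were counted from lists of named genes. Of the 16 list genes called in 12q against 1p, 16 were called again without NextSeq 12q DOX, 14 without 12q No DOX, 4 without 1p No DOX and 5 without 1p DOX. Of the 2 called in the 8p comparison, KRT15 and CDH2, both were called again without 12q DOX, neither without 1p DOX or either 8p DOX library, and CDH2 alone without the vector library. Of 26 further type I keratins, 2 reached the filter in each table, KRT10 and KRT15. KRT15, a keratin of basal epithelial cells, was higher in the 8p DOX libraries by 3.23 (SE 0.37; limma, adjusted p = 0.0318) and higher in 12q than in 1p by 1.51 (SE 0.13; limma, adjusted p = 0.00317). Its level was 8.01 FPKM in 8p No DOX and 20.5 and 20.2 FPKM in 8p DOX, against 0.726 FPKM in 1p DOX, 0.762 FPKM in the vector library and 2.87 FPKM in HiSeq 12q DOX. KRT10, a keratin of differentiating epidermis and the other one tested, passed neither test. Of 22 further type II keratins, KRT79 and KRT86 reached the filter in the HiSeq and KRT79 in the NextSeq table. Of these 0 passed by limma, with 1 at an unadjusted p under 0.05 in the 8p and 0 in the 12q comparison. Over all genes, 2881 of 11352 in the 8p and 5207 of 11397 in the 12q comparison had an unadjusted p under 0.05.

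KRT86, a hair keratin whose gene starts 10349 bases past the end of KRT81 and whose sequence is nearly identical, had far lower values. It was at 2.09 FPKM in 8p No DOX, 1.16 and 1.39 FPKM in 8p DOX, 0.761 FPKM in 1p DOX, 0.408 FPKM in the vector library and 2.35 FPKM in 12q DOX. KRT81 was 33.1 to 54.9 times as high as KRT86 in the HiSeq and 75.1 to 579 times as high in the NextSeq libraries. The lowest and the highest KRT86 library were thus the vector and 12q DOX in the HiSeq table. Reads shared between the pair could have been assigned to either, so the KRT86 values are uncertain.

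Among 13 other filament genes, 3 reached the filter in the HiSeq table and 0 passed there by limma. An unadjusted p under 0.05 was seen for 1, beside 2881 of all 11352 genes. Of the 4 that reached the filter in the NextSeq table, 2 were lower in 12q, beside 14.8% of all genes, and 3 with a common median. NEFL, the light neurofilament chain, was lower, at -2.19 (SE 0.11; limma, adjusted p = 0.00107), with 3.66 and 3.76 FPKM in the 12q clone against 18.5 and 22.8 FPKM in the 1p clone. In the HiSeq table NEFL stood at 4.42 FPKM in 12q DOX and at 17.2 to 23.6 FPKM in the other 5 libraries, so the neurofilament followed the 12q clone in both tables. SYNC (syncoilin) was lower, at -0.39 (limma, adjusted p = 0.0482), with 11.8 and 14.2 FPKM against 17.9 and 16.6 FPKM. This call was lost with no trend, with no filter on low values and with DOX as a covariate. The mean of SYNC was 15.1 FPKM in the NextSeq table but 0.861 FPKM in the HiSeq table, and the reason was not tested.

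The lamina and lamin-processing list had 13 of 14 genes above the filter. None passed in the 8p comparison, 0 by limma with 3 at an unadjusted p under 0.05, beside 2881 of all 11352 genes. In 12q, 3 of 13 were lower, beside 14.8% of all genes, a count that became 5 with a common median. ZMPSTE24, the protease that matures prelamin A, was lower, at -0.69 (SE 0.07; limma, adjusted p = 0.00421), and so was ICMT, the methyltransferase of the same pathway, at -0.69 (SE 0.08; limma, adjusted p = 0.00513). TMPO, which encodes the lamina-associated LAP2 proteins, was lower, at -0.24 (limma, adjusted p = 0.0361). In the HiSeq table, with 1 library each, TMPO was higher in 12q DOX than in 1p DOX, at 39.6 against 27.7 FPKM. ZMPSTE24 was there at 12.7 against 12.2 FPKM and ICMT at 18.8 against 25.7 FPKM. LMNA itself did not pass. With DOX in the 8p clone the B-type lamin LMNB1 went from 53.8 to 29.6 and 27.3 FPKM and LMNB2 from 72.6 to 45.0 and 41.6 FPKM, while LMNA differed by 2.94%. Neither B-type gene passed a test at the main settings. Their log2 ratios there were -0.90 and -0.73, beside a 5th percentile of all genes of -0.64. TMPO (-0.94), FNTB (-0.85), ICMT (-0.76) and ZMPSTE24 (-0.67) were below that percentile too, whereas LEMD2, SUN1, SUN2 and FNTA were higher with DOX. In the 1p and 12q clones the LMNB1 log2 ratios were 0.08 and 0.05, and those of LMNB2 -0.06 and -0.31.

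Of 15 plakin and desmosome genes, which tie filaments to junctions and to other parts of the cytoskeleton, 7 reached the filter in each table. None passed in the 8p comparison, 0 by limma with 3 at an unadjusted p under 0.05, beside 2881 of all 11352 genes. In 12q, 2 of 7 were higher and 2 lower, beside 17.5% and 14.8% of all genes. DSG2, a desmosomal cadherin, was higher by 1.76 (SE 0.09; limma, adjusted p = 0.00107), with 20.5 and 21.7 FPKM against 5.12 and 5.94 FPKM. MACF1, the gene in which the 1p transgene lies, was higher by 1.15 (limma, adjusted p = 0.00295). In the HiSeq table MACF1 was lowest in 1p DOX, at 21.2 FPKM. It was at 39.9 FPKM in the vector library, 44.8 FPKM in 12q DOX and 48.5 to 70.0 FPKM in the 8p libraries. PLEC (plectin), which binds vimentin and keratin filaments, was lower, at -0.72 (limma, adjusted p = 0.0360; -0.46 without 12q DOX), and so was DST (dystonin), at -0.40 (limma, adjusted p = 0.0155).

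Of the mesenchymal list, 9 of 14 genes were tested in each table. In 12q, 5 of 9 were lower, beside 14.8% of all genes, among them VIM, FN1 (fibronectin) at -1.36 (limma, adjusted p = 0.00695) and CDH2 (N-cadherin) at -0.57 (limma, adjusted p = 0.0115), and 1, SPARC, was higher, beside 17.5% of all genes, by 0.75 (limma, adjusted p = 0.00254). In the 8p DOX libraries CDH2 was higher by 1.32 (limma, adjusted p = 0.0299), and with a common median 2 genes of the list passed. The epithelial list had 0 genes tested in the HiSeq table. The 2 tested in the NextSeq table included CLDN4, named after its value was seen, which was higher in 12q by 0.77 (limma, adjusted p = 0.0237), with 2.96 and 2.06 FPKM against 1.05 and 1.04 FPKM.

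The 5 genes whose profile over the 10 libraries lay closest to that of KRT81 were then sought among 6904 genes with a mean of 5 FPKM or more in both tables, by the root mean square difference of log2(FPKM + 1) after centring within each table. They were ID3 (0.26), a transcriptional inhibitor, CAV1 (0.28), the caveolin of caveolae, COX14 (0.30), a mitochondrial protein, TRIAP1 (0.34) and ANXA1 (0.34), an annexin. The median gene was at 0.69, and KRT81 itself deviated from its own table means by 0.77. ID3 stood at 26.0 FPKM in 8p No DOX, 19.4 and 22.1 FPKM in 8p DOX, 10.6 FPKM in 1p DOX, 5.51 FPKM in the vector library and 20.8 FPKM in 12q DOX. All 5 were lowest in the vector library and second lowest in 1p DOX among the HiSeq libraries, as was KRT81. Choosing genes by closeness to KRT81 favours this, so it is no separate result. Among NextSeq libraries ID3, COX14, TRIAP1 and ANXA1, 4 of the 5, were higher in both 12q libraries than in either 1p library, which KRT81 was not. Of the filament genes, KRT80 ranked 120 by this measure, KRT18 360, LMNA 1245, KRT8 4631 and VIM 5750.

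**Figure D5:**
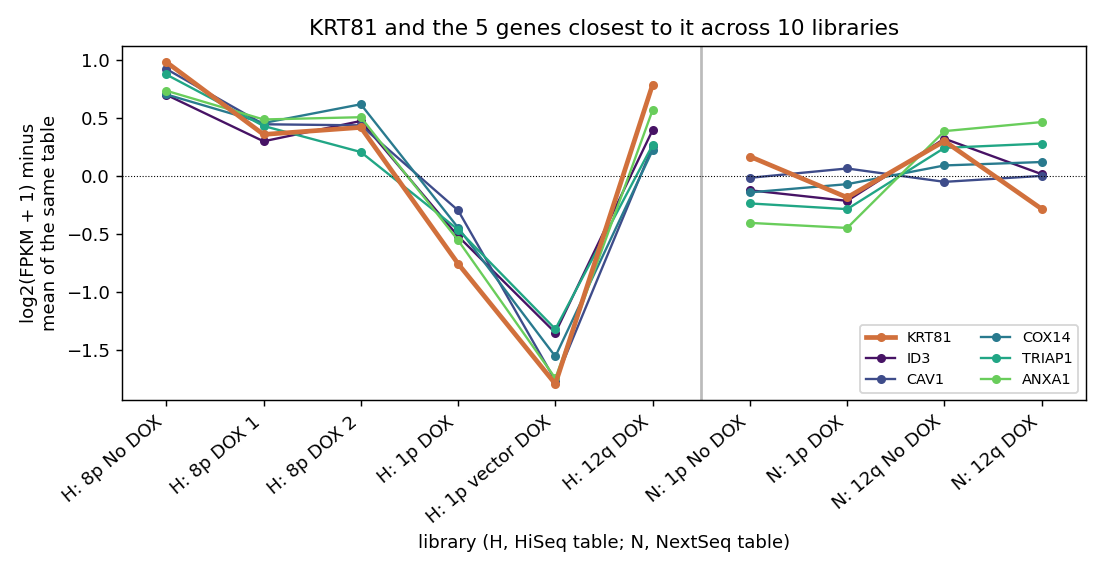
Log2(FPKM + 1) minus the mean of the same table for KRT81 (thick line) and the 5 genes closest to it, in the 6 HiSeq (H) and 4 NextSeq (N) libraries; the lines join libraries only to guide the eye. All 6 genes are lowest in the vector library, where KRT81 is 13.5 FPKM, which choosing the 5 by closeness to KRT81 favours. The genes diverge in the NextSeq libraries.

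KRT81 lies at chr12:50965964-50971566 on hg18, in the type II keratin cluster of 12q, 57.7 Mb from the gene that hosts the 12q transgene. KRT7 (chr12:50913221-50928976), KRT80 (chr12:50849047-50872051) and KRT8 (chr12:51577238-51629917) lie in the same cluster, with the type I gene KRT18 (chr12:51628922-51632952) at its edge. KRT19 is on chromosome 17, VIM on chromosome 10, and NES and LMNA on chromosome 1, 115 Mb from MACF1, the host gene of the 1p transgene. Within 1 Mb of KRT81, 8 genes that are no members had a mean of 5 FPKM or more in the HiSeq table and 9 in the NextSeq table. With DOX, 3 of 8 were lower in the 8p clone, 4 of 9 in the 1p clone and 7 of 9 in the 12q clone, beside 61.0%, 51.6% and 54.1% of all genes with the same mean. Their median log2 ratios were 0.02, 0.00092 and -0.12, against -0.59, -0.35 and -0.59 for KRT81. The 12q count rests on the NextSeq 12q DOX library, and no difference between clones was tested.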

How the data were processed

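Poly-A RNA-seq libraries of HT1080 clones were prepared with a strand-specific protocol. Per the labels and the study's methods, the authors aligned paired-end reads to hg18 with Tophat (Bowtie) and estimated FPKM per gene with Cufflinks; versions and annotation are not given in the sources used here. The deposited FPKM values sit in 2 tables (HiSeq, 6 libraries; NextSeq, 4 libraries), normalised separately, so tests stay within a table. The ChIP samples were not used here. Read depth is unknown from FPKM, so the precision of single values is too.

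Values were analysed as log2(FPKM + 1), and genes with a mean of at least 1 FPKM in the libraries compared were tested with limma 3.58.1 (R 4.3.3; eBayes with trend, Benjamini-Hochberg adjustment). A fold change on this scale understates the change of low genes. DOX ratios were not tested, nor was KRT81 in any comparison, since its values chose it; a planned KRT81 test of 12q against 1p is given as a value only. The members and all lists were chosen with earlier results of these data known, so neither is independent evidence. Named were all 9 members, list genes with a mean of 5 FPKM or more that passed (at most 4 a list), the 5 closest profiles to KRT81, XIST, and KRT86 and KRT83, the neighbours of KRT81. Some further genes are named outside that rule, LMNB1 and LMNB2 among them. KRT83 stayed under 0.5 FPKM in every library. The limma step was tested on artificial values with known changes before use. Alternatives were other pseudocounts (0.1, 0.5), filters, a common median, no trend, a DOX covariate, 8p No DOX added, and leaving out each library.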

Additional observations from a re-analysis of the deposited data

Results flagged for a closer look

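For 4 members the DOX ratio had opposite signs in different clones. In the clones compared below, every DOX library lay on the same side of the No DOX library of its clone. The 8p clone is left out for LMNA, since its DOX libraries lay on either side of No DOX (-0.491% and 6.37%). Over all 9797 genes followed, 19.9% were lower and 11.9% higher in all 3 clones. Most genes thus had no common sign either, and nothing is read from the members' count. With 1 No DOX library a clone, the members' differences were not tested. For KRT8 the log2 ratio of DOX to No DOX in the 8p clone exceeded that in the 1p clone by 0.30 and that in the 12q clone by 0.87. For KRT80 the 8p ratio minus the 1p ratio was -1.15, and the 1p ratio exceeded the 12q ratio by 0.57, the 1p ratio itself being 0.0094. For VIM the 8p ratio exceeded the 1p ratio by 0.13, and the 1p ratio minus the 12q ratio was -0.13. For LMNA the 1p ratio exceeded the 12q ratio by 0.45. The 12q ratios rest on the NextSeq 12q DOX library, which has CDH1 at 1.38 FPKM and EPCAM at 2.38 FPKM, and the part of these transcripts was not tested. The 8p and the other ratios come from separately normalised tables.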

How the results depend on the processing

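No group had 4 or more libraries, no depth is known, and single libraries decided many calls. No analysis paired by replicate name was possible because at most 1 replicate name recurs between any groups tested. The DOX covariate matched the sides of the 12q comparison by treatment only. In the 8p comparison the 160 genes became 95 with a mean of at least 5 FPKM, 251 with a common median (113 higher and 138 lower, against 115 and 45) and 587 with 8p No DOX added, and 5 to 700 when a library was left out (11 without 8p DOX replicate 1, 5 without replicate 2, 21 without 1p DOX, 254 without the vector and 700 without 12q DOX). In the 12q comparison the 3686 genes became 1207 with no filter and 322 to 3758 when a library was left out (341 without 1p No DOX, 322 without 1p DOX), and a common median gave 1704 higher and 1982 lower, against 1998 and 1688. The cause was not tested. Changed signs in that comparison were KRT8 at 0.0025 and LMNA at 0.088 without 12q DOX, KRT18 at -0.10 without 12q No DOX and -0.03 without 1p DOX, and KRT81 at -0.019 with a common median, -0.28 without 12q No DOX and -0.16 without 1p DOX. Over all left-out libraries the differences ranged from -0.66 to 0.0025 for KRT8, -0.10 to 0.23 for KRT18, -0.28 to 0.31 for KRT81, -0.84 to -0.28 for KRT80 and -0.30 to 0.088 for LMNA. The KRT81 DOX ratio became -0.52 in both the 8p and the 12q clone with a common median, and leaving out an 8p DOX library gave -0.62 to -0.56. The count of members lower with DOX in all 3 clones was 2 under all 5 alternatives run. Of 115 tests of members other than KRT81 under alternatives, 102 kept direction and side of the threshold, 6 newly passed, 3 no longer passed and 4 changed sign.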
